A study of Mus musculus with 18 samples.

Results

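The subunits of the 5 oxidative phosphorylation complexes were followed in muscle progenitors that were grown from mouse pluripotent stem cells and in those taken from embryos, fetuses, newborn and adult mice. The members were chosen by gene symbol alone, as the Nduf, Sdh, Uqcr, Cox4 to Cox8 and Atp5 subunit genes together with the mitochondrial protein-coding genes, and were matched to the bulk data by Ensembl identifier. This gave 97 of the 28692 genes of the single-cell gene file, all of which were also among the 47728 genes of the bulk counts. Of these, 84 are encoded in the nucleus (37 in complex I, 4 in complex II, 8 in complex III, 18 in complex IV and 17 in complex V) and 13 on the mitochondrial genome (7 in complex I, 1 in complex III, 3 in complex IV and 2 in complex V). The complex was assigned by symbol. Atp5sl, placed in complex V in this way, is named Dmac2 in GENCODE, so its place there is uncertain.

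Oxidative phosphorylation takes electrons from NADH (complex I) and succinate (complex II), passes them through complex III to cytochrome c and on to oxygen at complex IV, and uses the proton gradient built on the way to make ATP at complex V, the ATP synthase. The genes for its subunits are split between the nucleus and the small circular mitochondrial genome, which is transcribed as long precursors that are cut into single messengers. Several complex IV subunits exist in alternative forms, such as Cox6a2, Cox7a1 and Cox8b, which are known from heart and skeletal muscle, and Cox6b2, known from testis.

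Bulk RNA sequencing covered 15 libraries in 5 groups of 3. The iPax3 and iPax7 groups were embryonic stem cell derivatives, sorted as Vcam1+Flk1- cells from embryoid bodies and grown with Dox and bFGF for 3 passages. Emb and Fet were myoblasts from My5Cre Rosa26YFP mice at E10.5 and E14.5, and Neo was satellite cells from Pax7-ZsGreen hindlimb muscles at postnatal day 3. Single-cell libraries held iPax3 cells and satellite cells of the tibialis anterior of Pax7-ZsGreen mice aged 3 months, with 1 library each. The cultured groups thus carry an induced transgene and the tissue groups a reporter, so that origin, culture and genotype cannot be told apart. The labels do not say that libraries of a group came from separate animals or cultures, and p-values measure only the spread between these libraries.

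Depth ran from 516504 counted reads in Fet 1 to 56275318 in iPax3 1. The library labelled iPax7 1 went against its label. It held 0.989 CPM of Pax7, against 111 and 349 CPM in iPax7 2 and 3. The pluripotency gene Pou5f1 was at 550.3 CPM there and at most 8.41 CPM in the other libraries. Its myogenic factors were low too, with Myf5 at 1.10, Myod1 at 0.0366 and Myog at 1.58 CPM. In iPax7 2 and 3, Myf5 was at 83.2 and 87.9, Myod1 at 27.1 and 43.9 and Myog at 563 and 517 CPM. Pax7 was also low in Neo, at 0.495 to 5.12 CPM, against 20.5 to 33.2 CPM in Emb and 32.6 to 55.3 CPM in Fet. Summed fibroblast markers were 111 to 1933 CPM in the cultured groups, 2985 to 3188 CPM in Emb, 31808 to 35775 CPM in Fet and 35799 to 109027 CPM in Neo, and summed endothelial markers were 21.6 to 161, 17.3 to 71.4, 299 to 646 and 2622 to 3522 CPM. All 8 fibroblast and all 12 endothelial markers passed the filter on low counts. In the test of cultured against tissue groups described below, 7 and 11 of them were lower in the cultured groups, as were 11.7% of all tested genes. In Emb 2 and Emb 3, 8.23% and 7.82% of the genes that averaged 20 CPM or more were under 1 CPM, against 0.284% to 3.2% in the other 13 libraries. The part of other cells and of these libraries in the results was not tested.

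Nuclear-encoded subunits were higher in the cultured libraries than in the tissue libraries. The nuclear members summed to 10593, 9986 and 11596 CPM (each library's counts over its total as scaled by edgeR's TMM method) in iPax3 and 10733, 9258 and 11168 CPM in iPax7, against 4715, 4424 and 5067 CPM in Emb, 3896, 5025 and 4446 CPM in Fet and 3763, 3494 and 3154 CPM in Neo. Every Neo library lay below every Emb and Fet library. The 6 cultured libraries, among them the library labelled iPax7 1 with its low Myf5, Myod1 and Myog, lay above all 9 tissue libraries. The same separation held for the sums of complex I (2271 to 3001 against 954 to 1656 CPM), complex II (498 to 614 against 115 to 378 CPM), complex III (615 to 902 against 172 to 345 CPM), complex IV (1166 to 1619 against 451 to 713 CPM) and complex V (4708 to 5889 against 1338 to 2304 CPM). In bulk RNA, fewer cells of a type and less RNA per cell cannot be told apart.

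**Figure D1:**
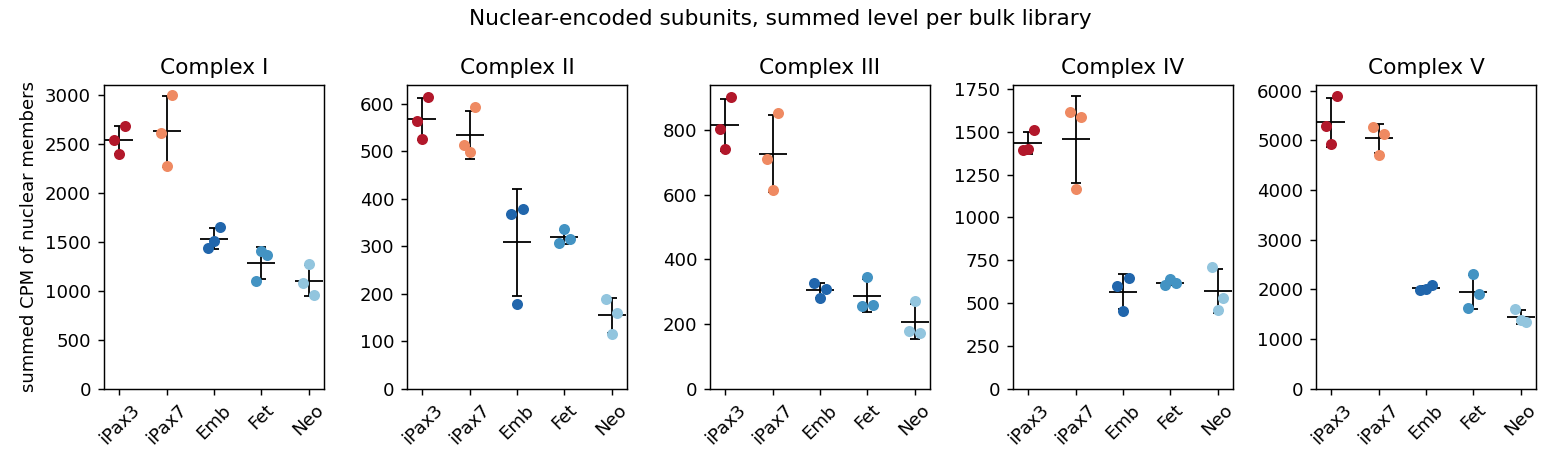
Summed CPM of the nuclear-encoded members of each complex, 1 panel per complex and 1 point per bulk library, by group, with the mean as a bar and the SD as whiskers (n = 3). In all 5 complexes the 6 cultured libraries lie above the 9 tissue libraries.

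The test contrasted the mean of the 2 cultured groups with the mean of the 3 tissue groups on the log scale, for all 17571 genes that passed the filter on low counts. Of the 80 nuclear members that passed it, 47 were higher and 0 lower in the cultured groups at an adjusted p under 0.05 (edgeR quasi-likelihood test, Benjamini-Hochberg over all genes), where 16.4% of all tested genes were higher and 11.7% lower. DESeq2 called 47 higher and 1 lower, and 73 of all 93 tested members had an unadjusted p under 0.05. Shares over all genes are not at hand for the DESeq2 and unadjusted counts, which are thus not read as a result about the members. The median log2 fold change of the 80 nuclear members was 1.35, against 0.29 over all tested genes. In 38 of the 80, every cultured library lay above every tissue library, as in 5.51% of all tested genes. By complex, 15 of 37 tested nuclear members were higher in complex I, 3 of 4 in complex II, 6 of 8 in complex III, 11 of 14 in complex IV and 12 of 17 in complex V. The 4 members without a test, Cox6a2, Cox7b2, Cox8b and Cox8c, had too few bulk counts.

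**Figure D2:**
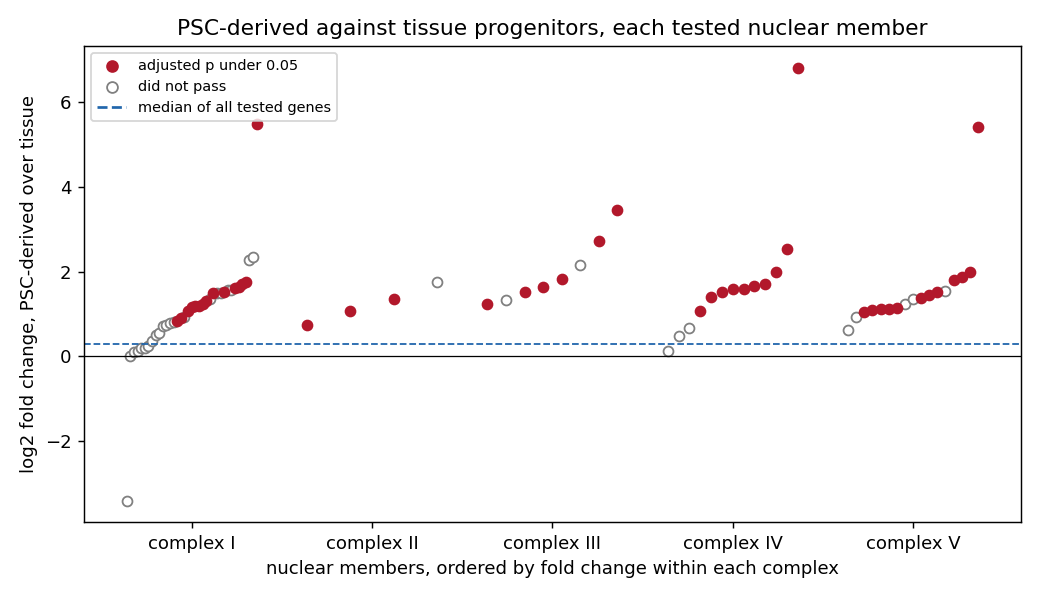
Log2 fold change, cultured minus tissue groups, of each tested nuclear member by complex, ordered by value, with filled points for an adjusted p under 0.05 and a dashed line at the median of all tested genes, 0.29. Cox7a1, at 0 in tissue, is left out, and Ndufa4l2 at -3.39 is the 1 member below 0.

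In complex I, leading members included Ndufs1, a core subunit that carries iron-sulfur clusters of the electron path, and Ndufa4. Ndufs1 was counted at 263, 239 and 279.8 CPM in iPax3 and at 196, 242 and 222 CPM in iPax7, against 77.0, 66.9 and 54.6 CPM in Emb, 70.9, 114 and 109 CPM in Fet and 53.8, 45.2 and 62.0 CPM in Neo, a 3.40-fold difference (log2 fold change 1.76, SE 0.17, adjusted p = 1.5e-06). The cultured and tissue libraries did not overlap. Ndufa4, first described with complex I and since assigned to complex IV, was at 122 to 183 CPM in the cultured and 26.8 to 114 CPM in the tissue libraries (log2 fold change 1.49, SE 0.22, adjusted p = 0.00013). Complex I also held members that showed no difference of that size: Ndufc2 was at 172, 156 and 218 CPM in Emb and 111, 96.2 and 126 CPM in iPax3 (log2 fold change 0.01, SE 0.18, adjusted p = 0.99), and Ndufs3 had a log2 fold change of 0.25 (adjusted p = 0.48). The 22 complex I members that did not pass the test ran from -3.39 for Ndufa4l2 to 2.35 for Ndufa11 on the log2 scale.

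In complex II, whose 4 subunits are all nuclear, the flavin-carrying subunit Sdha was at 295, 290.1 and 311 CPM in iPax3 and 273, 281 and 298 CPM in iPax7, against 182, 115 and 223 CPM in Emb, 202, 197 and 169 CPM in Fet and 101, 42.8 and 95.7 CPM in Neo (log2 fold change 1.08, SE 0.20, adjusted p = 0.00072). The lowest cultured library lay above the highest tissue library, Emb 3, and Neo was the lowest group. The iron-sulfur subunit Sdhb (log2 fold change 1.35, SE 0.30, adjusted p = 0.0031) and the membrane anchor Sdhc (log2 fold change 0.75, SE 0.21, adjusted p = 0.012) were higher too. The other anchor, Sdhd, was at 68.9 to 103 CPM in the cultured and 0 to 65.4 CPM in the tissue libraries and missed the threshold (adjusted p = 0.18); it was at 0 CPM in Emb 2 and Emb 3.

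In complex III, the core subunit Uqcrc1 was at 167 to 281 CPM in the cultured libraries, against 133, 125 and 116 CPM in Emb, 81.3, 101 and 71.4 CPM in Fet and 50.6, 35.3 and 37.0 CPM in Neo (log2 fold change 1.63, SE 0.17, adjusted p = 3.2e-06). The groups did not overlap, and the tissue values were ordered Emb, Fet, Neo from high to low without overlap between stages. Uqcrc2, the other core subunit, was at 129.7 to 185 against 13.5 to 79.5 CPM (log2 fold change 1.84, SE 0.32, adjusted p = 0.00054). The Rieske iron-sulfur protein Uqcrfs1 was at 51.7 to 79.2 against 3.26 to 67.8 CPM (log2 fold change 1.53, SE 0.36, adjusted p = 0.0047), and Emb 2 reached the cultured range.

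In complex IV, Cox6b1 was counted at 117, 120.1 and 123.0 CPM in iPax3 and at 91.9, 79.8 and 126 CPM in iPax7, against 45.9, 43.9 and 37.7 CPM in Emb, 64.0, 33.8 and 32.1 CPM in Fet and 21.9, 24.2 and 23.2 CPM in Neo (log2 fold change 1.66, SE 0.21, adjusted p = 3.1e-05). No tissue library reached the lowest cultured value of this subunit, which faces the intermembrane space. Cox4i1, the common form of subunit 4, was at 185 to 263 against 30.6 to 122 CPM (log2 fold change 1.51, SE 0.24, adjusted p = 0.00021). The other called members were Cox5a, Cox5b, Cox6a1, Cox6c, Cox7a2, Cox7b and Cox8a, with log2 fold changes of 1.07 (Cox6c) to 2.53 (Cox5a), and the alternative forms Cox6b2 and Cox7a1.

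In complex V, Atp5b was counted at 2161, 2096 and 2530.1 CPM in iPax3 and at 2358, 1961 and 1846 CPM in iPax7, against 595, 592 and 561 CPM in Emb, 564, 737 and 523 CPM in Fet and 458, 457 and 439.6 CPM in Neo. This catalytic beta subunit of the ATP synthase (chromosome 10, 128083273 to 128090391, GRCm38) was 3.97-fold higher in the cultured groups (log2 fold change 1.99, SE 0.13, adjusted p = 3.1e-08), the smallest adjusted p of all members, and its 3 tissue groups differed little among themselves. Its partner alpha subunit Atp5a1 was at 1240.0 to 1515 against 397 to 751 CPM (log2 fold change 1.38, SE 0.14, adjusted p = 3.6e-06). Per length, Atp5a1 and Atp5b had the highest levels of the nuclear members in the mean over all 15 libraries, at 284 and 281 RPKM (CPM per kilobase of exon). In single tissue groups other members lay above them: Ndufc2 in Emb, at 242 RPKM against 196 and 138, and Ndufa8 in Neo, at 122 RPKM against 107 for Atp5b. Of the 3 genes for the membrane ring subunit, Atp5g3 was higher, at 228 to 522 against 111 to 308 CPM (log2 fold change 1.09, SE 0.17, adjusted p = 0.00025), with the library labelled iPax7 1 inside the tissue range. Atp5g1 and Atp5g2 did not pass (adjusted p = 0.14 and 0.19).

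Alternative subunits stood apart from their common forms. Cox6b2 (chromosome 7, 4751792 to 4753094, GRCm38) was at 15.7, 11.2 and 8.59 CPM in iPax3 and 17.6, 4.76 and 10.1 CPM in iPax7, while the highest of the 9 tissue libraries, Fet 2, held 1.22 CPM and 5 held none (log2 fold change 6.80, SE 0.93, adjusted p = 6.3e-05). Cox7a1 was at 0.191 to 3.70 CPM in the cultured libraries, 200 reads in all, and at 0 in every tissue library. It passed the test (adjusted p = 0.0033) and was at least 37.8-fold higher, taking 3 counts over the 9 tissue libraries as the floor. Without the library labelled iPax7 1, which held 101 of the 200 reads, the bound was at least 21.6-fold. Cox8b reached 3.93 CPM in iPax7 3 and 0.274 CPM in Fet 2, and Cox6a2 at most 0.341 CPM.

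Ndufa4l2, a relative of Ndufa4 known for its induction under low oxygen, went the other way in several libraries. It was at 0.0350, 0.0238 and 0.0264 CPM in iPax3 and 0 and 0.0569 CPM in iPax7 2 and 3, but at 21.3 CPM in the library labelled iPax7 1. In tissue it was at 1.93, 0 and 0 CPM in Emb, 20.8, 1.55 and 2.42 CPM in Fet and 55.6, 1.63 and 30.7 CPM in Neo. With all libraries the contrast did not pass (log2 fold change -3.39, SE 1.52, adjusted p = 0.11), and without the library labelled iPax7 1 it did (log2 fold change -7.32, adjusted p = 0.0063). Over the other settings the adjusted p ran from 0.0017 to 0.99. Cox4i2, the low-oxygen form of subunit 4, was at 5.45, 3.92 and 5.12 CPM in Neo and at most 0.228 CPM in the cultured libraries other than the library labelled iPax7 1, which had 3.22 CPM. Its fold change over all cultured and tissue groups did not pass (log2 fold change 0.14, adjusted p = 0.66).

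Subunit genes are short, with a median exon length of 1559.5 bases against 3909 bases over all tested genes, and short genes as a whole were more often higher in the cultured groups. Among genes of up to 2195 bases, 20.2% were higher, with a median log2 fold change of 0.80, and 29 of the 56 nuclear members (51.8%) were higher, with a median of 1.42. Among genes of 2195 to 3909 bases, 16.1% of all genes and 11 of 14 members were higher, and above 6295 bases 637 of 4382 genes and both members. Members with neither a near-identical copy nor a same-strand exon overlap elsewhere in the genome were higher in 33 of 56 cases (median log2 fold change 1.36), and the other members in 14 of 24 (median 1.24). Of the 63 nuclear members that averaged 20 CPM or more, 9 were under 1 CPM in Emb 2, 5 in Emb 3 and 1 in Neo 1. With Emb 2, Emb 3, Fet 1 and the library labelled iPax7 1 left out together, 52 nuclear members were higher, 39 of them among the 47.

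Against each tissue stage apart, with iPax3 as the common cultured group, a minority of the nuclear members passed the test, most of them as higher in iPax3. These comparisons share the iPax3 libraries. Against Emb, 20 of the 80 were higher and 0 lower, where 9.34% of all genes were higher and 7.64% lower. Against Fet, 13 were higher and 0 lower (2.85% and 5.68% of all genes), and against Neo 32 were higher and 2 lower (11.3% each). The count of all members higher than in Fet, 13 as well, was 8 without iPax3 1 or without iPax3 3, 7 without Fet 2 and 6 without Fet 3. With only the iPax3 and Fet libraries in the fit it was 59, with 7 lower. Over all 93 members, 44, 43 and 57 had an unadjusted p under 0.05, and DESeq2 called 33, 18 and 34 higher and 3, 8 and 9 lower. Shares over all genes are not at hand for these counts, nor for the fit of only iPax3 and Fet. Atp5b had log2 fold changes of 1.96 (SE 0.21, adjusted p = 2.3e-05) against Emb, 1.89 (SE 0.21, adjusted p = 2.4e-05) against Fet and 2.32 (SE 0.21, adjusted p = 2.2e-06) against Neo.

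The members that led each complex differed in part by stage. In complex I, Ndufs1 had log2 fold changes of 1.98 against Emb, 1.3996 against Fet and 2.28 against Neo. Ndufb10, an accessory subunit, was among the first 3 against Emb (log2 fold change 2.05, adjusted p = 0.00048). Ndufa4 was among the first 3 against Fet (1.69, adjusted p = 0.0066) and Neo (1.95, adjusted p = 0.0011). In complex II, the test called Sdha (1.91, adjusted p = 0.00054), Sdhb (2.31, adjusted p = 0.0035) and Sdhc (1.07, adjusted p = 0.028) higher against Neo and no member against Emb or Fet. Uqcrc1 had log2 fold changes of 1.02, 1.58 and 2.63 against Emb, Fet and Neo. Cox6b1 led complex IV against Fet (1.51, adjusted p = 0.011) and Neo (2.38, adjusted p = 0.00016), with Cox7b behind it against Neo (1.83, adjusted p = 0.007) and Cox8a against Fet (1.85, adjusted p = 0.04).

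Further leading members against Emb were Cox6a1 (log2 fold change 2.10, adjusted p = 0.0033), Uqcrc2 (2.42, adjusted p = 0.0055) and the small complex III subunit Uqcr10 (5.003, adjusted p = 0.013), which was at 0.114 and 0 CPM in Emb 2 and Emb 3. Atp5c1, the gamma shaft of the ATP synthase, followed Atp5b and Atp5a1 against Emb (1.26, adjusted p = 0.04), Atp5g3 against Fet (1.24, adjusted p = 0.0098) and the stalk subunit Atp5o against Neo (2.85, adjusted p = 0.00019). The 2 nuclear members lower than in Neo were Ndufa4l2 (log2 fold change -9.74, adjusted p = 0.025) and Cox4i2 (-5.53, adjusted p = 0.037), both near 0 in iPax3.

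Between the iPax7 and iPax3 groups no member passed the test, where 0.0569% of all genes were higher and 0.0171% lower in iPax7. Unadjusted, 2 members had a p under 0.05, and by DESeq2 there was 1 higher call, with no share over all genes at hand for either. The median coefficient of variation over members was 9.15% in iPax3 and 24.4% in iPax7, which holds the library labelled iPax7 1. No limit of detection was computed. The largest log2 fold changes, 7.69 for Ndufa4l2 in nuclear complex I and 3.52 for Cox4i2 in nuclear complex IV, did not pass. Both came from the library labelled iPax7 1. Ndufa4l2 held 581, 0 and 1 reads in iPax7 1, 2 and 3, against 2, 1 and 1 in iPax3. Cox4i2 held 88, 4 and 4 reads, against 3, 7 and 3. These values do not show how large a difference shared by all iPax7 libraries could go uncalled.

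Between tissue stages, few nuclear members passed. None of the 80 differed between Fet and Emb, where 2.89% of all genes were higher and 0.763% lower in Fet. All members called there were mitochondrial, 6 in number (18 members without Emb 1). Unadjusted, 20 of the 93 had a p under 0.05, and 13 were higher and 2 lower by DESeq2, with no shares over all genes at hand. By group mean, the largest mitochondrial differences were in the run of 6 genes from mt-Co2 to mt-Nd4l described below. That run summed to 6472, 13318 and 61.2 CPM in Fet and 47.9, 16.8 and 21.1 CPM in Emb, and its levels are uncertain. Neo against Fet had 1 nuclear member higher and 3 lower (1.37% and 1% of all genes). Ndufa8, an accessory complex I subunit, was at 93.2, 144 and 77.3 CPM in Neo, 31.1, 41.9 and 40.5 CPM in Fet and 33.4, 26.7 and 55.0 CPM in Emb (log2 fold change 1.46, SE 0.37, adjusted p = 0.047 against Fet). Every Neo library lay above every Fet and Emb library. Sdha (-1.25, adjusted p = 0.046), Uqcrc1 (-1.05, adjusted p = 0.047) and Atp5o (-1.82, adjusted p = 0.027) were lower in Neo than in Fet. These calls lay near the threshold: of 8 lower members in all, the count was 5 without Fet 3, 2 without Fet 1 or Neo 3, 1 without Neo 1 and none without Fet 2 or Neo 2. The other 5 lower members were mitochondrial. By group mean, only the run genes and mt-Nd4 were lower in Neo than in Fet among the mitochondrial members.

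The mitochondrial-encoded members divided by their place on the mitochondrial genome. A run of 6 neighbouring genes, in the order mt-Co2, mt-Atp8, mt-Atp6, mt-Co3, mt-Nd3 and mt-Nd4l, was counted low in most tissue libraries. Their sum was 2725, 2581 and 8765 CPM in iPax3 and 6175, 3415 and 6931 CPM in iPax7. It was 47.9, 16.8 and 21.1 CPM in Emb, 6472, 13318 and 61.2 CPM in Fet and 101, 162 and 192 CPM in Neo. Fet 1 and Fet 2 thus lay with the cultured libraries, and Fet 3 with Emb and Neo. As a share of all mitochondrial counts the run took 11.8% to 29.9% in the cultured libraries, 20.7% and 23.9% in Fet 1 and Fet 2, and 0.0666% to 0.255% in the other 7 tissue libraries. In the single-cell libraries, made with another kit and another counting program, it took 65.8% in iPax3 and 67.4% in adult cells.

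The run of low genes covers a stretch that the nuclear genome repeats almost letter for letter on chromosome 1. GENCODE lists minus-strand copies there of mt-Co2 (Gm28661, 24614885 to 24615565), mt-Atp6 (Gm10925), mt-Co3 (Gm28437), mt-Nd3 (Gm28438, 24612775 to 24613119), mt-Nd4l (Gm10222) and 63.6% of mt-Nd4 (Gm28439), at 99.71% to 100% identity. Copies were sought among annotated transcripts only. None is listed for mt-Atp8, a run gene that starts at 7766, between the end of mt-Co2 (7696) and the start of mt-Atp6 (7927). The bases between the copies of those neighbours (24614651 to 24614885) were not searched, so whether mt-Atp8 is copied there was not tested. Outside the run, mt-Co1 has a copy of 31.3% of its length there (Gm29216, 99.79% identity). It also has a full-length copy on chromosome 2 (Gm13340, 97.6% identity). The first 100 bases of mt-Co2 and mt-Nd3 are shown beside their copies because a read from either place would have the same or nearly the same letters (GRCm38, coding strand, differing base in capitals at position 3 of mt-Nd3).
mt-Co2: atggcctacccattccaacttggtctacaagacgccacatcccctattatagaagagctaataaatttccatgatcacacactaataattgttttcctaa
Gm28661: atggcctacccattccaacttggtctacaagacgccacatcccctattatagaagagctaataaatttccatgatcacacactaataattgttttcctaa
mt-Nd3: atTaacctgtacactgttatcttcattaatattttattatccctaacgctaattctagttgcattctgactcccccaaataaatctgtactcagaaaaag
Gm28438: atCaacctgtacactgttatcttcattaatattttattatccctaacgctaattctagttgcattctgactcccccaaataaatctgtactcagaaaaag
Over the full alignments, mt-Co2 and Gm28661 had 0 mismatches in 681 bases, and mt-Nd3 and Gm28438 had 1 in 345. The copies themselves were counted at a sum of 8.65 to 110 CPM per library. The treatment of reads with several matches is not given in the sources used here, and its part in the low counts was not tested. Levels of the run genes, mt-Atp8 included, are therefore uncertain.

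**Figure D3:**
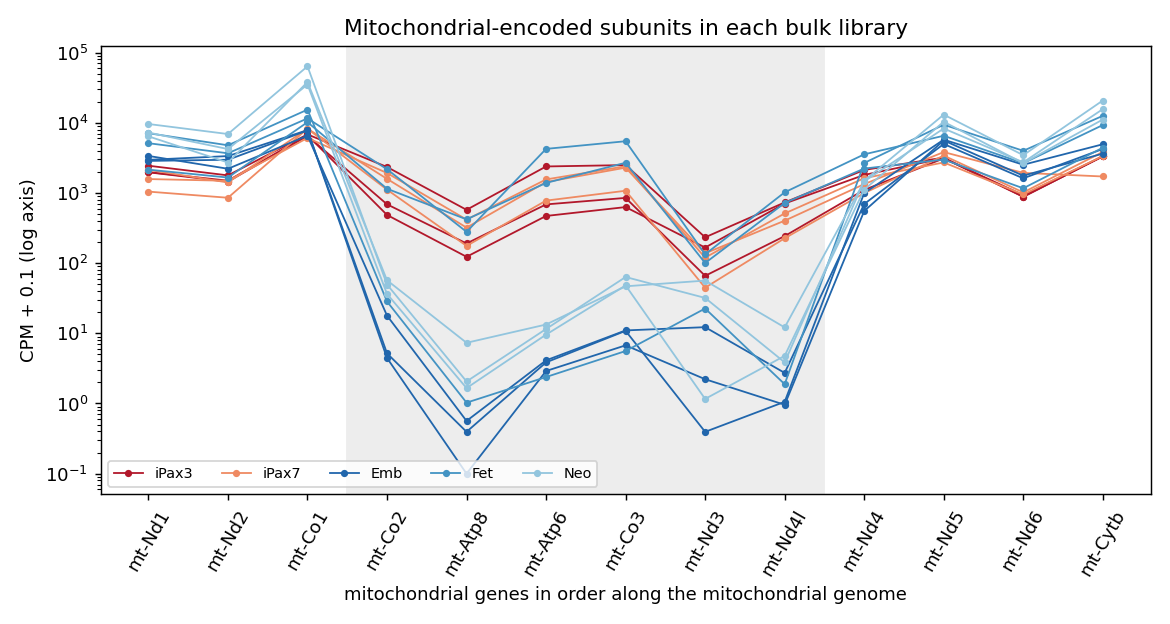
CPM plus 0.1 of the 13 mitochondrial-encoded genes in genome order on a log axis, 1 line per bulk library coloured by group, with the run of 6 genes shaded. From mt-Co2 to mt-Nd4l the Emb, Neo and Fet 3 libraries drop far below the cultured libraries and Fet 1 and Fet 2, while the genes on either side do not.

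In the contrast of cultured with tissue groups, the test called the 6 run genes higher in the cultured groups, with log2 fold changes of 2.45 (mt-Nd3) to 5.72 (mt-Atp8), and 6 other genes lower. The lower genes were mt-Nd1 (-1.399, adjusted p = 0.00035), mt-Nd2 (-1.33, adjusted p = 0.0009), mt-Nd5 (-1.14, adjusted p = 0.00068) and mt-Nd6 (-1.19, adjusted p = 0.0017) of complex I, mt-Cytb (-1.42, adjusted p = 0.00034) of complex III and mt-Co1 (-1.19, adjusted p = 7.1e-05) of complex IV. In mt-Nd4, which lies partly in the copied stretch, the contrast did not pass (log2 fold change 0.07, adjusted p = 0.84). Cultured and tissue libraries overlapped in all 13.

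With the run and mt-Nd4 set aside, the sum of the remaining 6 genes was highest in Neo. It was 16165 to 20026 CPM in the cultured libraries, 22971, 24603 and 27389 CPM in Emb, 22578, 38806 and 53204 CPM in Fet and 70718, 117613 and 73868 CPM in Neo. In this sum every Neo library lay above every other library, and Fet overlapped Emb. Single genes were less distinct: mt-Nd6 had a mean of 5016 RPKM (SD 2721) in Fet and 5676 RPKM (SD 847) in Neo. mt-Nd4 itself was lower in Neo, at 1114, 1495 and 1460 CPM against 2227, 3549 and 2673 CPM in Fet. mt-Co1, the catalytic subunit of complex IV, was at 6075 to 8242 CPM in the cultured libraries, 6555, 7776 and 7856 CPM in Emb, 10202, 11540.0 and 15389.5 CPM in Fet and 35117, 63809.7 and 38076 CPM in Neo. It was the 1 mitochondrial gene called higher in Neo than in Fet (log2 fold change 1.88, adjusted p = 0.00088). Against Neo, iPax3 was lower in 6 mitochondrial members and higher in 5, against Fet lower in 4 (mt-Nd1, mt-Nd6, mt-Cytb and mt-Co1), and against Emb lower in mt-Nd6 alone and higher in mt-Nd4 and the 6 run genes. The 4 calls lower than Fet numbered 0 without any 1 of the iPax3 libraries or without Fet 3 and 1 without Fet 2, and the call lower than Emb was lost without any 1 iPax3 library, Emb 2 or Emb 3. Fet 1, the shallowest library at 516504 reads, had the lowest value of mt-Nd1 and mt-Nd2 within Fet. The nuclear and the mitochondrial sums were thus ordered differently: Neo had the lowest nuclear and the highest mitochondrial sum.

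The promoters of nuclear members were searched for letters that resemble the binding site of NRF1, a known activator of respiratory genes. RefSeq promoters (GRCm38.p6, the 250 bases before the start) were at hand for 66 of the 84 nuclear members, in 71 entries. The motif, GCGCA and GCGC with 1 base between them, read on both strands, was in 14 of the 71 (19.7%), from 13 genes, and in 3.74% of all 32851 promoters. The muscle-type E-box CAGCTG was in 6 of the 71 (8.45%) against 13% of all promoters, and the MEF2-type motif, CTA and TAG with 4 bases between them, in 1 (1.41%) against 3.2%. Sdha and Ndufb4, with 3 matches each, and Cox6a1, with 2, are shown as examples, and Cox8b because it is a muscle form with an E-box. Matches per promoter were counted only in those shown. Matches are in capitals.
Sdha promoter, minus strand, chr13:74350241-74350490: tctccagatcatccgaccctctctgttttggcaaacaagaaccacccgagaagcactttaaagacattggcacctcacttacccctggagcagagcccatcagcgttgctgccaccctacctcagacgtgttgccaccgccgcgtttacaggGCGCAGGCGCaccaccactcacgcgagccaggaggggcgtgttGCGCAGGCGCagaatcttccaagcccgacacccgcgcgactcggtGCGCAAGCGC
Ndufb4 promoter, minus strand, chr16:37654369-37654618: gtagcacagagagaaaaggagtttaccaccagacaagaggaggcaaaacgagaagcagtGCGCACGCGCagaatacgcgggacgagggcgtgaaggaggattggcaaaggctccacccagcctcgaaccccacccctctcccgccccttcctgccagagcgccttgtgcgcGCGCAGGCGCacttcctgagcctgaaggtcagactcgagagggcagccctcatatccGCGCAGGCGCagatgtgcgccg
Cox6a1 promoter, minus strand, chr5:115348959-115349208: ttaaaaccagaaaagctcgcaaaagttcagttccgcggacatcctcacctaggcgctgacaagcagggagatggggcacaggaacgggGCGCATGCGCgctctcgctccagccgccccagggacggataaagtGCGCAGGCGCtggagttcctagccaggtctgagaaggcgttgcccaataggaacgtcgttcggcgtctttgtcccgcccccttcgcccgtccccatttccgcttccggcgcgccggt
Cox8b promoter, minus strand, chr7:140900447-140900696: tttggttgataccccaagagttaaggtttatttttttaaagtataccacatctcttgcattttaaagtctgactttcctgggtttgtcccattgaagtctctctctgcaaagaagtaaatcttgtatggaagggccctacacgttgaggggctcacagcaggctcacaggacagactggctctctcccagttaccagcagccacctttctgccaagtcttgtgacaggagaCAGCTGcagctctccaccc
The letters mark a sequence only and show no binding. Of the 13 genes with this motif, 6 were higher in the cultured groups, against 47 of the 80 tested nuclear members and 16.4% of all genes. Of those shown with it, Sdha, Ndufb4 (log2 fold change 5.48, adjusted p = 0.0016) and Cox6a1 (1.60, adjusted p = 0.00031) were among the 6. Ndufb4 has a near-identical copy elsewhere in the genome. It held 70 reads over the tissue libraries, 5 of which had none, and 5971 over the cultured libraries, so the size of its fold change is uncertain. Ndufa5, with the motif in 2 entries, did not pass (0.73, adjusted p = 0.093).

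Single cells gave a second view, with 579 adult and 2931 iPax3 cells at a median of 10765 and 11716 UMIs (unique transcript molecules) and 1 barcode in common. With 1 library each there is no test, and intervals (95%, exact) cover counting error only. The nuclear members took 5.99% of UMIs in iPax3 cells and 2.55% in adult cells, a ratio of 2.35 (2.34 to 2.36). Ratios were 2.17 for complex I, 2.32 for II, 2.62 for III, 2.13 for IV and 2.70 for V, and the mitochondrial members took 5.60% against 3.79% (ratio 1.47). The middle 80% of cells held 4.95% to 7.22% nuclear-member UMIs in iPax3 and 2.22% to 2.76% in adult cells, so the ranges did not meet. Of 91 members with 20 CPM or more in either library, 55 were at least 2-fold higher in iPax3 cells and 1 lower, where 32.6% and 26.2% of the 4472 genes at that level were.

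The labels were checked against marker genes. Adult cells held 146 CPM of Pax7 and 216 CPM of Myod1, and iPax3 cells 164 CPM of Pax3 and 124 CPM of Myog against 5.31 CPM of Myog in adult cells. The adult library also held 675 CPM of the 12 endothelial, 1510.4 CPM of the 8 fibroblast and 1489 CPM of the 8 immune markers, against 40.6, 22.6 and 6.39 CPM in iPax3 cells, and Hba-a1 was at 0 in both. The part of other cells in the adult values was not tested.

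**Figure D4:**
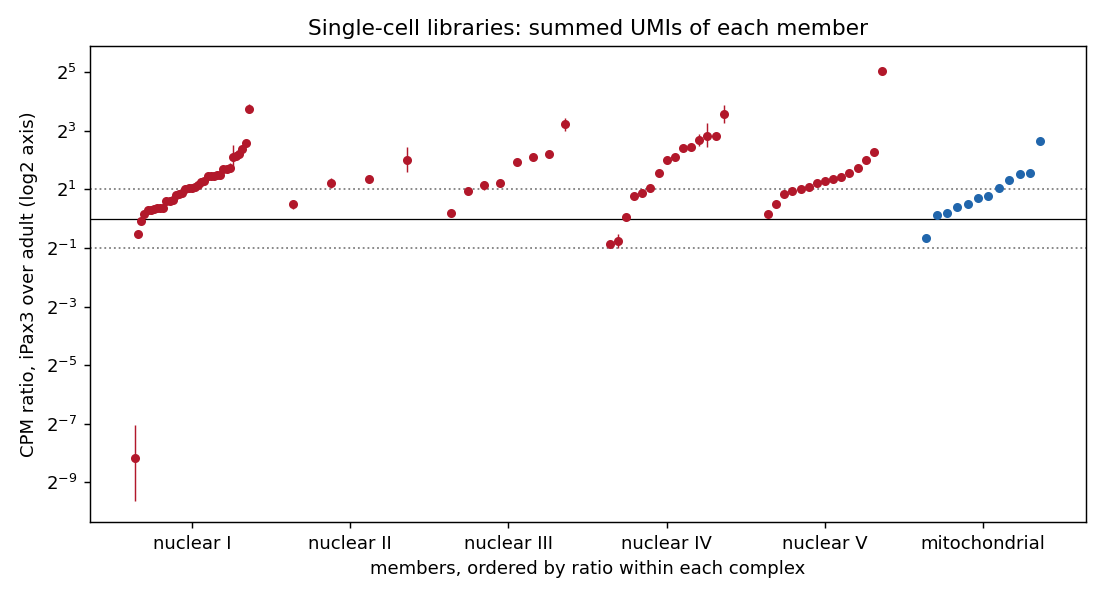
Ratio of summed-UMI CPM, iPax3 over adult cells, for each of the 91 members at 20 CPM or more, by complex on a log axis with the mitochondrial members last, and whiskers for the 95% counting interval. Dotted lines mark 2-fold. Most points lie above 1, Atp5k is highest at 32.9 and Ndufa4l2 lowest at 0.00349.

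The widest ratio was that of Atp5k, the e subunit of the membrane part of the ATP synthase (2651 against 80.6 CPM, ratio 32.9, interval 30.4 to 35.6). The accessory complex I subunit Ndufa3 followed (708 against 52.5 CPM, ratio 13.5, interval 12.2 to 14.9). Then came the muscle form Cox8b (137 against 11.6 CPM, ratio 11.8, interval 9.58 to 14.6). All of these were low in adult cells, at under 100 CPM. Uqcrfs1 (207 against 22.3 CPM, ratio 9.29, interval 8.004 to 10.9) and the complex IV subunit Cox7c (1956 against 274 CPM, ratio 7.13, interval 6.83 to 7.45) were next. At the other end, Ndufa4l2 stood far below all others (0.144 against 41.4 CPM, ratio 0.00349, interval 0.00127 to 0.00767), the same side as in the iPax3 and Neo bulk libraries. Next came Cox7a2l, a factor that joins complexes III and IV into supercomplexes (416 against 758 CPM, ratio 0.549, interval 0.533 to 0.566), and the muscle form Cox6a2 (14.51 against 24.4 CPM, ratio 0.594, interval 0.505 to 0.703). In nearly empty adult barcodes, those under 100 UMIs, which hold free RNA, Cox8b was at 26.5 CPM (13 UMIs) and Cox6a2 at 36.7 CPM (18 UMIs), above their levels in adult cells, so these 2 adult levels are not read as expression. The same held on the iPax3 side. Nearly empty iPax3 barcodes held Cox8b at 203 CPM and Cox6a2 at 18.3 CPM, above their levels in iPax3 cells. The ratios of these 2 genes are thus not read as differences in expression. The mitochondrial gene mt-Nd5 (149 against 235 CPM, ratio 0.635, interval 0.603 to 0.670) and Ndufv1, the NADH-binding subunit (106 against 154 CPM, ratio 0.689, interval 0.647 to 0.735), were also lower in iPax3 cells, by less than 2-fold. Ndufv1 was higher in the cultured bulk groups (log2 fold change 1.19, SE 0.23, adjusted p = 0.0012), opposite to its ratio here, where the tissue cells were adult.

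Within families of alternative subunits, the shares of UMIs differed between the libraries. Of the Cox7a family, Cox7a2 took 71.2% in iPax3 and 42.1% in adult cells, and Cox7a2l 25.9% and 57.4%. Ndufa4l2 took 0.0121% of the Ndufa4 pair in iPax3 and 13.4% in adult cells, and Cox6b2 10.8% and 6.99% of the Cox6b pair. Nearly empty barcodes held Cox6b2 at 226 CPM in iPax3, above its level in iPax3 cells. In adult ones it was at 24.4 CPM (12 UMIs), near its level in adult cells. The Cox6b2 shares are thus not read as differences in expression. Cox8b took 4.90% of the Cox8 UMIs in iPax3 and 0.793% in adult cells, where the free RNA described above limits both shares. Single-cell reads are counted at the 3′ end of transcripts and bulk reads along the exons, so levels are not set across the assays.

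Among iPax3 cells, those with a UMI of Myog, the factor of muscle differentiation, had more of the muscle forms Cox8b and Cox6a2 and less Cox6b2, while the summed subunits differed little. All cells were thinned to 5000 UMIs, which left out 77 shallower cells, and 909 cells then had a Myog UMI and 1945 had none. Free RNA can give such a UMI: in nearly empty barcodes of the same library, those under 100 UMIs, Myog was at 125 CPM, Cox8b at 203 CPM, Cox6a2 at 18.3 CPM and Cox6b2 at 226 CPM. In adult cells thinned alike, 1.79% had a Myog UMI, 4.58% one of Cox8b and 10.96% one of Cox6a2, against 31.9%, 33.6% and 4.73% of iPax3 cells. The grouping is thus one by detected UMI and not by expression. The other 13 genes of the muscle fibre list summed to 6109.8 against 1322 CPM. Cox8b was at 313 against 83.2 CPM, ratio 3.76 (95% interval 3.45 to 4.10) and Cox6a2 at 23.3 against 10.2 CPM, ratio 2.29 (95% interval 1.73 to 3.04). Cox7a1 was at 47.1 against 49.9 CPM, ratio 0.944 (95% interval 0.800 to 1.11), and Cox6b2 lay the other way at 124 against 214 CPM, ratio 0.578 (95% interval 0.526 to 0.635). The nuclear members as a whole took 6.18% against 6.04% of UMIs (ratio 1.02, 1.02 to 1.03) and the mitochondrial members 5.99% against 5.74% (ratio 1.04, 1.04 to 1.05). For the 288 cells with 3 or more Myog UMIs against those with none, a class chosen after seeing the data, the ratio was 5.0004 for Cox8b (95% interval 4.49 to 5.56), 3.41 for Cox6a2, 0.724 for Cox7a1, 0.351 for Cox6b2 and 1.02 for the nuclear members. These cells share 1 library, so the ratios describe it and were not tested.

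**Figure D5:**
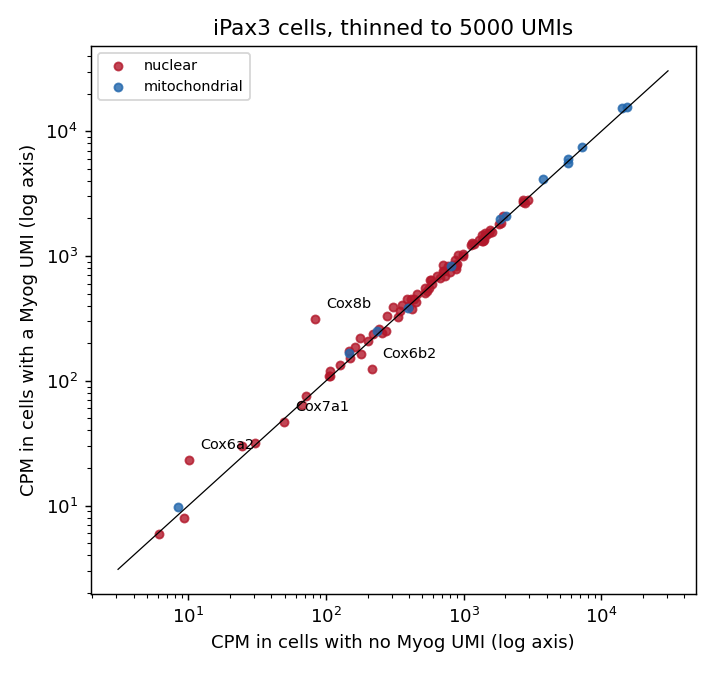
CPM of each member with 20 UMIs or more, in iPax3 cells with a Myog UMI (vertical) against cells without one (horizontal), both axes logarithmic, after thinning to 5000 UMIs per cell. Most members lie on the line of equal level, Cox8b (3.76) and Cox6a2 (2.29) lie above it and Cox6b2 (0.578) below.

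The authors deposited scaled mean UMIs per cluster, in a separate table for each library. By these, nuclear members summed to 630.2 to 787 over the 7 iPax3 clusters and to 277 and 283 in the 2 adult clusters. The mitochondrial members summed to 541 to 811 and to 416 and 385 in those tables. Whether both tables share a scale is not given in the sources used here, so levels are not set across them. iPax3 cluster 1, with the highest mean of Myog at 5.68 in the authors' deposited table, had 704 for the nuclear members, inside the range of the other clusters.

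The wider pathway was read in the same bulk contrast of cultured with tissue groups, where 16.4% of all tested genes were higher and 11.7% lower. Of 17 tricarboxylic acid cycle enzymes, 15 were higher and none lower, with a median log2 fold change of 1.37 and with Mdh2 (274 against 77.3 CPM), Cs (315 against 141 CPM) and Idh3a (237 against 80.8 CPM) at the smallest adjusted p. Of 46 assembly factors of the complexes, 10 were higher (7 without the library labelled iPax7 1) and none lower, a share of higher calls near that of all genes, with Lrpprc (199.6 against 69.4 CPM), which stabilises mitochondrial messengers, Ndufaf1 (44.6 against 22.3 CPM) and Tmem70 (57.0 against 30.005 CPM) at the smallest adjusted p. Of 8 subunits and carriers outside the symbol rule 4 were higher, with Slc25a4 (762 against 246 CPM), Slc25a3 (549.5 against 265 CPM) and Cyc1 (113 against 37.3 CPM) first. Mitochondrial ribosomal proteins had 18 of 77 higher (15 without the library labelled iPax7 1) and none lower, again a share of higher calls near that of all genes. Mrpl45 (70.6 against 29.1 CPM), Mrps25 (73.4 against 25.4 CPM) and Mrpl51 (59.1 against 28.4 CPM) came first. Regulators and mitochondrial transcription genes were called no more often than genes at large, with 4 of 26 higher (1 without the library labelled iPax7 1), among them Polg (75.3 against 31.2 CPM), Tfb1m (5.49 against 1.53 CPM) and Ppara, and 2 lower, Nrip1 (48.4 against 103 CPM) and Gabpb1 (76.1 against 126 CPM).

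Marker lists in that contrast, with the same shares of all genes, gave 6 of 14 differentiated muscle fibre genes higher and none lower and 1 of 8 neural genes higher and 4 lower. Of 6 pluripotency genes, 4 were higher and 1 lower, and without the library labelled iPax7 1 the count was 2 higher and 1 lower. Pluripotency genes summed to 3617 CPM in that library, 7.40 to 28.7 CPM in the other 5 cultured libraries and 20.9 to 463 CPM in tissue. In the lists of other tissue cells, genes lower in the cultured groups were 11 of 12 endothelial, 7 of 8 fibroblast, 5 of 7 immune (1 higher, none without the library labelled iPax7 1) and 4 of 8 erythroid genes. Differentiated muscle fibre markers summed to 109 to 3225 CPM in the cultured, 389 to 1598 CPM in Emb, 1019 to 1124 CPM in Fet and 384 to 936 CPM in Neo libraries.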

How the data were processed

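Bulk files hold raw read counts per gene that the authors made and deposited; the submitters' processing notes name CASAVA 1.8, HISAT2 2.0.2 and featureCounts 1.4.6, and the build mm10. Single-cell matrices hold deposited UMI counts per gene and barcode, for which those notes name Cell Ranger 2.2.0. The scaled mean UMIs per cluster come from the authors' deposited tables. Strandedness is not given in the sources used here, so reads from overlapping antisense genes, which 29 members have, cannot be told apart. Of the bulk identifiers, 47309 matched GENCODE M21 and 419 did not, and 28 members have a near-identical copy elsewhere (97% identity over 100 bases or more).

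The members and lists were chosen with earlier results of these data known. Libraries were grouped by their titles. Genes passing edgeR's filter were tested with edgeR 4.0.16 (R 4.3.3), by a robust quasi-likelihood test on the 15 bulk libraries together, with TMM scaling and Benjamini-Hochberg adjustment over all 17571 genes at 0.05. The steps were tested on simulated data. The genes named were all mitochondrial members, the alternative-subunit families and, in each complex and comparison, up to 3 members per direction with the smallest adjusted p; in single cells, the 5 widest ratios each way at 20 CPM or more; and in each wider list, up to 3 per direction. A result that this rule would name is not reported here. Ndufc2, Ndufs3, Ndufb4, Ndufa5, Ndufa11, Sdhd, Cox5a and further members were named after their values were seen. The lists were assembly factors, subunits and carriers outside the rule, regulators, tricarboxylic acid cycle, mitochondrial ribosomal proteins, and endothelial, erythroid, immune, pluripotent, fibroblast, neural and differentiated muscle fibre markers.

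A barcode counted as a cell if it held 500 UMIs or more, no more than 10% of them mitochondrial, and reached 10% of a top level, the UMIs at percentile 99 among the 3000 largest barcodes. No doublet caller was run. A second iPax3 matrix repeats the barcodes of the other matrices (573 of the 579 adult and 2769 of the 2931 iPax3 cells) and was not used as separate cells. Libraries re-isolated after engraftment were not analysed here. Alternatives were DESeq2 1.42.0, RLE scaling, no filter on low counts, a replicate block, mitochondrial genes left out, only the 2 groups compared, and each library left out. The class of cells with 3 or more Myog UMIs, the barcodes of few UMIs and the lists without the library labelled iPax7 1 were added after seeing the data.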

Additional observations from a re-analysis of the deposited data

How the results depend on the processing

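Of 3141 alternative values for single members, 2882 kept their direction and their side of the threshold, 201 were no longer past it, 58 came past it and 0 reversed. Of 232 alternative counts, 182 stayed within 1.5 times the reported one. Nuclear members higher in the cultured groups numbered 44 with RLE scaling, 45 with no low-count filter, 46 with the replicate block and 47 with DESeq2. With each library left out in turn, they ranged from 44 to 56 (lower, 0 to 1). The 1 lower call, with the replicate block, with DESeq2, without the library labelled iPax7 1 and with iPax7 1, Emb 2, Emb 3 and Fet 1 left out together, was 1 in each case; that last setting was chosen after seeing the data. Leaving out 1 library at a time gave 49 to 62 members higher and 6 to 7 lower for cultured against tissue groups, 18 to 31 and 0 to 1 for iPax3 against Emb, 6 to 10 and 0 to 6 against Fet, 27 to 35 and 6 to 7 against Neo, 4 to 18 and 0 to 0 for Fet against Emb (18 without Emb 1), and 1 to 2 and 0 to 5 for Neo against Fet.

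With no low-count filter, lower calls were 0 for iPax3 against Emb, 2 against Fet and 3 for Neo against Fet, which had 1 higher. With only the 2 groups compared, iPax3 against Emb had 5 lower, iPax3 against Fet 59 higher and 7 lower, Fet against Emb 1 higher and Neo against Fet 4 lower. With DESeq2, iPax7 against iPax3 had 1 higher, iPax3 against Emb 3 lower and against Fet 8 lower, Fet against Emb 13 higher and 2 lower, and Neo against Fet 13 lower. With mitochondrial genes left out, 0 nuclear members were higher in Neo than in Fet. Replicate numbers did not pair the libraries (correlations of same-numbered libraries -0.331 to 0.0767). With the replicate block, lower calls were 0 for iPax3 against Emb and 2 against Fet, Neo against Fet had 1 higher and 2 lower, and 1 nuclear member was lower in the cultured groups. The causes of these shifts were not tested, and shares over all genes are not given for these settings. The single-cell alternative with the second iPax3 matrix was not run, since it repeats the same cells. Fet 1, at 516504 reads, limits what low members can show in Fet.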
